A study of Caenorhabditis elegans with 2 samples.

Results

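A total of 2359 ZTF-11 peaks lay in introns of protein-coding genes on the autosomes and outside promoters, out of 9760 autosomal peaks, and made up 19.6% of the list called on both replicates together. By its deposited label this pooled list holds peaks and background. An entry called a peak here need not be a site bound by ZTF-11. A peak was counted when its summit fell on chromosomes I to V, inside a protein-coding gene but in no exon, outside every window of 1000 bp upstream to 200 bp downstream of a protein-coding transcript 5′ end, and more than 500 bp from tRNA, snoRNA and snRNA genes. No signal value entered this rule, though it needs a peak called on these data and its summit. The set was chosen with earlier results of these data known. Chromatin immunoprecipitation and sequencing (ChIP-seq) of eGFP-tagged ZTF-11 was done on whole mixed-stage embryos, males and females pooled, of the Caenorhabditis elegans strain OP236, genotype unc-119(ed3) III; wgIs236. The tagged ztf-11 is the integrated transgene wgIs236, and both libraries carry the unc-119(ed3) mutation. The labels name 2 biological replicates, 1 library each, and these form a single group with no second condition. Neither the DNA that drives the transgene nor the read depth is stated in the sources used here. Embryos were not separated into cell types, so the cells behind a peak are unknown.

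ZTF-11 is the worm member of the Myt1 zinc finger proteins, transcription factors of neurogenesis that in vertebrates act partly by repressing genes of other cell fates. Introns of C. elegans genes are mostly short, but long introns of developmental genes can hold enhancers, alternative promoters and whole non-coding RNA genes. Intronic peaks that are not background therefore mark places where a factor was recovered inside a gene, without saying which gene it acts on.

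Each peak carries the authors' signal value, relative to a control, whose scale is not stated, so signal is used only to rank and describe peaks within a list. Over the 2359 intronic peaks signal ran between 12.3 and 124, with a median of 15.0. The authors' list thresholded for reproducibility between replicates held 70 of them, called the thresholded intronic peaks here, with signals of 34.1 to 124 and a median of 43.7. The other 2289 had a median of 14.9 and reached 33.9. Thresholded peaks were the strongest peaks of the pooled list, so a statement about them is a statement about strong peaks. Peaks just inside the threshold lay in vab-2, the ephrin gene (34.2), and tlk-1, a Tousled-like kinase gene (34.1), and those just outside lay in T28B11.1 (33.9) and bed-2, a BED zinc finger gene (33.8). The T28B11.1 peak overlapped a thresholded peak of the same gene (37.6), and both met the same peak in each replicate.

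The 8 strongest intronic peaks on chromosomes II to V are shown as sequence because GAGAG was the motif of those searched that most often lay at strong intronic summits. Each line gives 75 bp on either side of the summit, on the plus strand, 5′ to 3′, read from the WBcel235 assembly, the sequence of ce11. Capitals mark GAGAG and, for the other strand, CTCTC. The 8 stretches are chrIII:12612615-12612765 in Y111B2A.12, chrIII:1921362-1921512 in pqn-41, chrII:1246930-1247080 in lin-42, chrIII:11371365-11371515 in tba-7, chrIII:5014055-5014205 in larp-1, chrIII:8795837-8795987 in zfp-1, chrIII:5031470-5031620 in klp-6 and chrIII:10096628-10096778 in spop-1.
Y111B2A.12: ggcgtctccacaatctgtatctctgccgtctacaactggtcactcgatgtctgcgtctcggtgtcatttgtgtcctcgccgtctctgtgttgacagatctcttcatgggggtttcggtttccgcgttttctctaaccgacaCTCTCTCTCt
pqn-41: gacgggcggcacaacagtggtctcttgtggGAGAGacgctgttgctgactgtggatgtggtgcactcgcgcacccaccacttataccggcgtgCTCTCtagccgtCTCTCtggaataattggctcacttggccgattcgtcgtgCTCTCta
lin-42: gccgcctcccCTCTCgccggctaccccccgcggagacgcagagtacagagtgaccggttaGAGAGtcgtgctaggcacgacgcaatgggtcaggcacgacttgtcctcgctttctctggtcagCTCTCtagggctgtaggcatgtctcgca
tba-7: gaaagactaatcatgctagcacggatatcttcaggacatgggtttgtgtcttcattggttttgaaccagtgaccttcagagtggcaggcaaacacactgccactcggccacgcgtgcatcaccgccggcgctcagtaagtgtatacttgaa
larp-1: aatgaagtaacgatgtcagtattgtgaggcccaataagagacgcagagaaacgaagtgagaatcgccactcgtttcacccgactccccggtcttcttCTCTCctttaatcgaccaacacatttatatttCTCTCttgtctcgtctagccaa
zfp-1: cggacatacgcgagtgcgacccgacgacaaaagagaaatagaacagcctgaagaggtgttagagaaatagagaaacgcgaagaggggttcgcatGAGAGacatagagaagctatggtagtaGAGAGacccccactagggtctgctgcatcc
klp-6: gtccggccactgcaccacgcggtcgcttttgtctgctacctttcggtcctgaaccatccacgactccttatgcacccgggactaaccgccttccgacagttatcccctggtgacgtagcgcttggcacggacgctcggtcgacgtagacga
spop-1: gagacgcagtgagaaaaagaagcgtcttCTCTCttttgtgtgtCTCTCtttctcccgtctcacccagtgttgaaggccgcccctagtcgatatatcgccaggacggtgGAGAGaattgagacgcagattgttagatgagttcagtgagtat
Counting overlapping matches, the pqn-41 stretch held 4, those of Y111B2A.12, lin-42 and spop-1 held 3 each, and those of larp-1 and zfp-1 held 2 each. The motif shares given below use a narrower window, within 50 bp of the summit. The 3 matches of Y111B2A.12 overlap in a single run, CTCTCTCTC, near the 3′ end of its stretch. That run lies outside the narrower window, so the strongest intronic peak had no GAGAG by that count. No match lay in the tba-7 and klp-6 stretches. Both of those summits lie inside a non-coding RNA gene, T28D6.15 at tba-7 and srpr-2.2, a signal recognition particle RNA gene, at klp-6.

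The strongest intronic peak lay in the fourth intron of Y111B2A.12, at chromosome III, 12612512 to 12612867. Its pooled signal was 124, with 68.8 in replicate 1 and 54.6 in replicate 2 for the overlapping peaks, which ranked 25 and 36 among the 30000 relaxed peaks of each replicate. Both replicates thus placed it among their strongest peaks. The next lay in pqn-41, which encodes a polyglutamine-rich protein, at chromosome III, 1921259 to 1921614 (pooled signal 99.8; 47.6 in replicate 1 and 51.3 in replicate 2; ranks 88 and 41). In the first intron of lin-42, the Period homologue that times larval development, the peak at chromosome II, 1246827 to 1247182, had a signal of 84.2 and lay inside the non-coding RNA gene F47F6.13. It ranked higher in replicate 1 (57.3, rank 52) than in replicate 2 (26.2, rank 278). The first intron of lsy-22, which encodes a Groucho-related corepressor needed for left-right asymmetry of taste neurons, held a peak of 72.2 with ranks of 120 and 216. The peak in larp-1, an RNA-binding protein gene, ranked 598 in replicate 1 and 61 in replicate 2 (pooled signal 68.7), so the replicates placed it further apart.

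Further hosts of the 20 strongest intronic peaks were tba-7, an alpha-tubulin gene (72.7), T28F4.1 (71.0), zfp-1, the homologue of the chromatin protein AF10 (66.7 and 58.1), klp-6, a kinesin gene (61.2), spop-1, a gene for a ubiquitin ligase adaptor (61.0), and cone-1 (59.5). The list continued with ints-8, an Integrator complex subunit gene (59.1), let-526, a SWI/SNF chromatin remodelling subunit gene (57.3), Y54G2A.26 (55.7), Y67D8A.2 (55.2), mfb-1, an F-box gene (54.5), mdt-26, a Mediator subunit gene (53.8), and cam-1, a Ror receptor tyrosine kinase gene (53.3). The ints-8 summit lay inside rpr-1, the RNase P RNA gene. Of the 20 strongest, the tba-7 peak lay in the shortest intron, 238 bp, and the lsy-22 peak in the longest, 11385 bp.

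**Figure D1:**
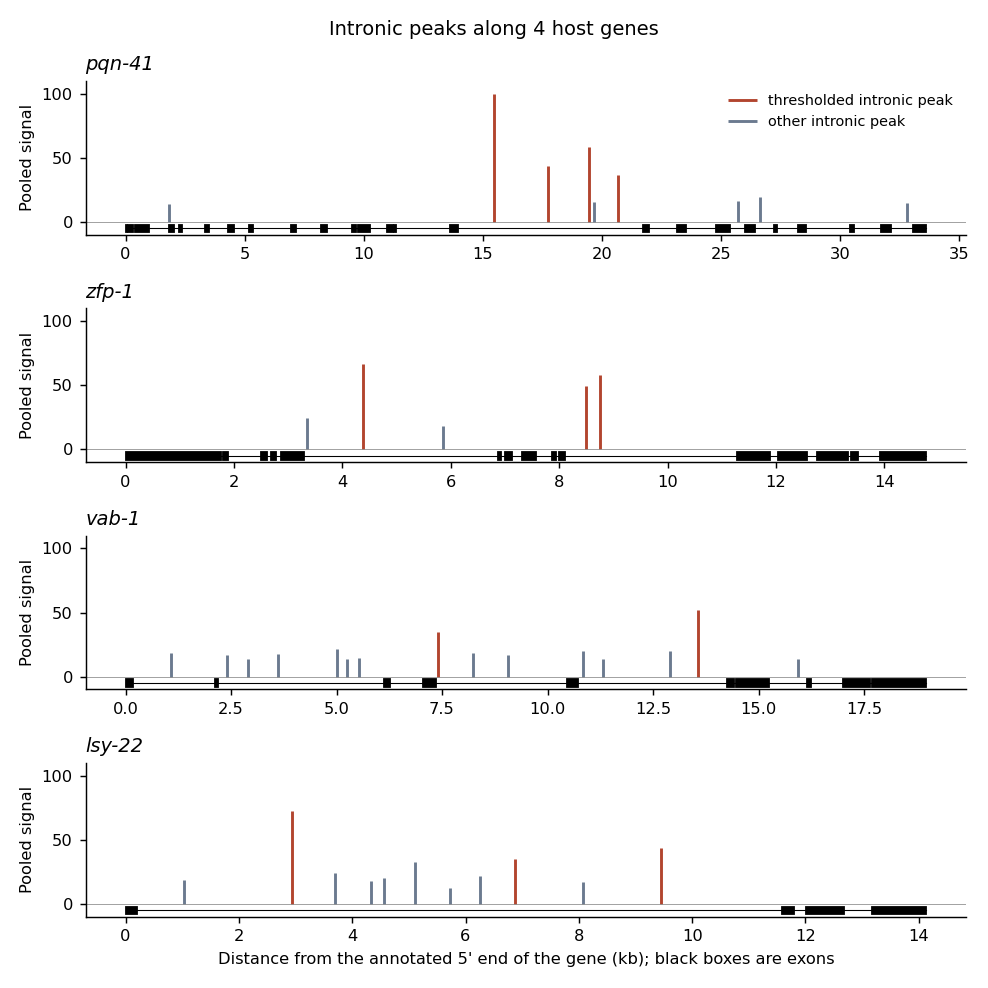
Intronic peaks along pqn-41, zfp-1, vab-1 and lsy-22, with distance from the annotated 5′ end of the gene (kb) on the horizontal axis, pooled signal on the vertical axis, thresholded intronic peaks in red, other intronic peaks in grey-blue and exons as black boxes. The 4 thresholded peaks of pqn-41 stand in 1 intron, and the 3 of lsy-22 stand in its first intron.

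Some strong intronic peaks shared a host gene. The 70 thresholded peaks had 56 host genes, and 10 of these hosts held more than 1, together 24 of the 70. In pqn-41 all 4 thresholded peaks lay in a single intron of 7770 bp, with signals of 99.8, 58.9, 43.6 and 37.0. In zfp-1 the 3 thresholded peaks had signals of 66.7, 58.1 and 49.5, and the last 2 of these overlapped each other and met the same peak in each replicate. The first intron of lsy-22 held signals of 72.2, 43.7 and 35.4, of which the weakest ranked 10289 in replicate 1 and 229 in replicate 2. Counting every intronic peak, 1580 genes were hosts among the 14797 autosomal genes with eligible intron, 10.7%, and 56 of the 14797, 0.378%, hosted a thresholded one. Eligible intron means every base at which a summit would meet the rule. Of the hosts, 1195 held 1 peak, 385 held 2 or more and 61 held 5 or more. The most peaks lay in hmr-1, the classical cadherin gene, with 17 in 44.9 kb of eligible intron and none of them thresholded. The next were vab-1, the Eph receptor gene, with 15 peaks of which 2 were thresholded (51.9 and 34.9), gcn-1, a regulator of translation, with 12 (1 thresholded), lsy-22 with 11 (3 thresholded), and egl-18, a GATA factor gene of the seam cells, with 11 and none thresholded. Genes with more intron hosted peaks more often: 70.9% of the 309 genes with at least 10000 bp of eligible intron were hosts, against 2.06% of the 6297 genes with less than 500 bp.

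Compared with other autosomal peaks, intronic ones were about as dense per Mb as distal intergenic peaks but less often strong. Density was 105 peaks per Mb of eligible intron (95% exact Poisson interval 101 to 110), against 81.9 for exonic, 109.5 for distal intergenic and 159 for promoter positions. In the thresholded list were 2.97% of intronic peaks (70 of 2359, exact interval 2.32 to 3.73), against 0.203% of exonic peaks (3 of 1477), 4.70% of distal intergenic peaks (99 of 2105, 3.84 to 5.70) and 7.75% of promoter peaks (273 of 3522, 6.89 to 8.68). Over the whole pooled list the share was 6%. Thresholded peaks came at 3.12 per Mb of eligible intron (2.44 to 3.95), against 0.166 in exons, 5.15 in distal intergenic sequence (4.18 to 6.27) and 12.4 at promoters (10.9 to 13.9). The intervals of intronic and distal intergenic positions overlapped for all peaks and did not overlap for thresholded ones. All intervals cover counting error only, and neighbouring peaks are not independent, nor are peaks replicates, so no test was made. Mappability and chromatin accessibility were not measured here.

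**Figure D2:**
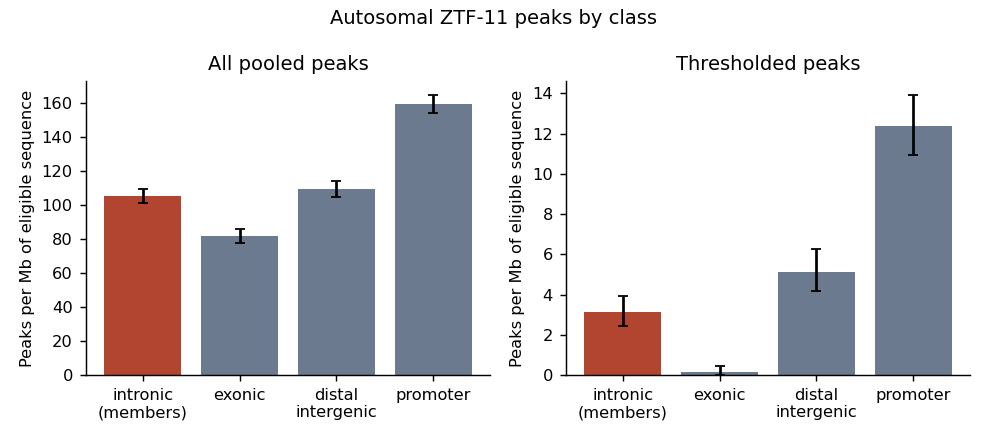
Peaks per Mb of eligible sequence for intronic, exonic, distal intergenic and promoter positions on the autosomes, for all pooled peaks (left) and thresholded peaks (right), with bars for the density and lines for 95% exact Poisson intervals. Intronic positions held 105 peaks per Mb and 3.12 thresholded peaks per Mb, against 159 and 12.4 at promoters.

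The 2 replicates were compared at these sites through their own relaxed lists of 30000 peaks. An overlapping peak was found for 2009 of the 2359 intronic peaks in replicate 1 (85.2%), for 1666 in replicate 2 (70.6%), for 1346 in both (57.1%) and for 30 in neither. The intronic shares were close to those of all autosomal peaks, 85.1% in replicate 1, 72.6% in replicate 2 and 58.7% in both. A 356-bp window, the width of every intronic peak, would overlap relaxed peaks of both replicates at 5.69% of eligible intron positions. The replicates contributed to the pooled list, so this is a description and not an independent check. All 70 thresholded peaks met a peak in both replicates. Their list was thresholded for reproducibility, but its intronic peaks were those of highest pooled signal. Close agreement between replicates at each single peak is therefore not implied. Ranks were compared as well, with a top set in each replicate of as many of its strongest peaks as the thresholded list holds. Both top sets held 34 of the 70 (48.6%), replicate 1's held 47, replicate 2's held 53, and 4 were in neither. The same shares are not given for thresholded peaks of other classes, so these cannot be called particular to intronic peaks. Median rank was 497 in replicate 1 (25 to 10289) and 390.5 in replicate 2 (36 to 3395). Of the other 2289 intronic peaks, 9 were in both top sets. Among them, those in T28B11.1, mdt-26 and coq-3 overlapped a thresholded peak of the same gene and met the same replicate peaks. Ranks diverged most for lsy-22 (35.4), above, and for unc-33, which encodes a CRMP-family protein of neuronal microtubules, with 8884 in replicate 1 and 138 in replicate 2 (pooled signal 45.7). Taking each replicate alone, 70 peaks of the top set of replicate 1 (9.71%) and 88 of that of replicate 2 (12.2%) met the rule for intronic peaks, as did the 70 of the thresholded list (9.71%).

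**Figure D3:**
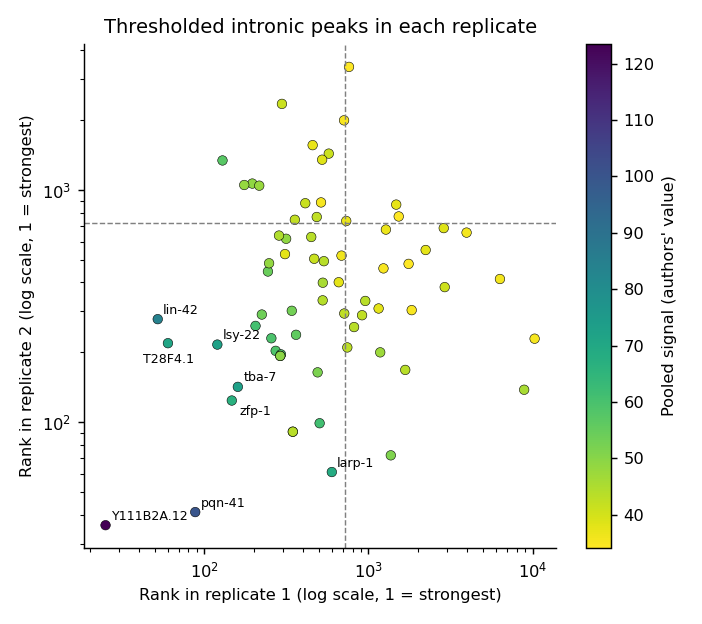
Rank of the best overlapping peak in replicate 1 (horizontal, log scale) and in replicate 2 (vertical, log scale) for each of the 70 thresholded intronic peaks, coloured by pooled signal, with dashed lines at the end of each replicate's top set and the hosts of the 8 strongest named. The 34 peaks at the lower left were in both top sets, and the strongest pooled peaks, in Y111B2A.12 and pqn-41, lie furthest into that corner.

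Strong intronic peaks lay mainly in long introns. The median intron around a thresholded peak was 3910 bp (quartiles 2016 and 6958), against 1123 bp around the other intronic peaks (490 and 3651). Because long introns offer more bases, density per eligible Mb was compared. Introns of 5000 bp and over held 12.0 thresholded peaks per Mb (29 peaks, 8.02 to 17.2) and those of 2000 to 5000 bp held 6.58 (24 peaks, 4.21 to 9.79), against 2.18 for 1000 to 2000 bp (10 peaks), 0.752 for 500 to 1000 bp (4 peaks) and 0.467 under 500 bp (3 peaks, 0.0963 to 1.36). For all intronic peaks the spread was smaller, 174 per Mb in the longest class and 131 in the next, against 88.9, 87.1 and 91.5 in the 3 shorter classes. The share thresholded was 6.87% in introns of 5000 bp and over and 0.510% in those under 500 bp. Among the 3 thresholded peaks in introns under 500 bp were those of tba-7 (238 bp) and mdt-26 (386 bp), and the remaining one, named after its value was seen, lay in Y62F5A.9 (482 bp, signal 37.8).

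First introns held 22 of the 70 thresholded peaks, including those of lin-42, lsy-22, tba-7, T28F4.1, spop-1 and cam-1. Their density was 5.05 per Mb in first introns (3.17 to 7.65), 2.49 in the second (1.14 to 4.72), 1.03 in the third (0.213 to 3.02) and 3.12 in later introns (2.19 to 4.32). The intervals of first and later introns overlapped. The median distance to the nearest protein-coding 5′ end was 1730 bp for thresholded peaks, 1647 bp for the other intronic peaks and 1663 bp for eligible bases. By distance, thresholded peaks came at 1.25 per Mb within 500 bp (3 peaks, 0.259 to 3.67), 2.41 at 500 to 1000 bp (9 peaks, 1.1 to 4.57), 3.89 at 1000 to 2000 bp (27 peaks, 2.56 to 5.66), 3.30 at 2000 to 5000 bp and 3.41 beyond. The intervals of these classes overlapped. Chromosome III had the highest density of thresholded intronic peaks, 5.42 per Mb (24 peaks, 3.47 to 8.07), and chromosome V the lowest, 1.26 (6 peaks, 0.463 to 2.75), with chromosomes I, II and IV between 2.87 and 3.23. Thresholded promoter peaks were also sparsest on chromosome V, at 6.25 per Mb, but densest on chromosome I, at 18.8, with 17.8 on chromosome III. Thresholded distal intergenic peaks were likewise densest on chromosome I, at 10.8 per Mb, with 6.85 on chromosome III.

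**Figure D4:**
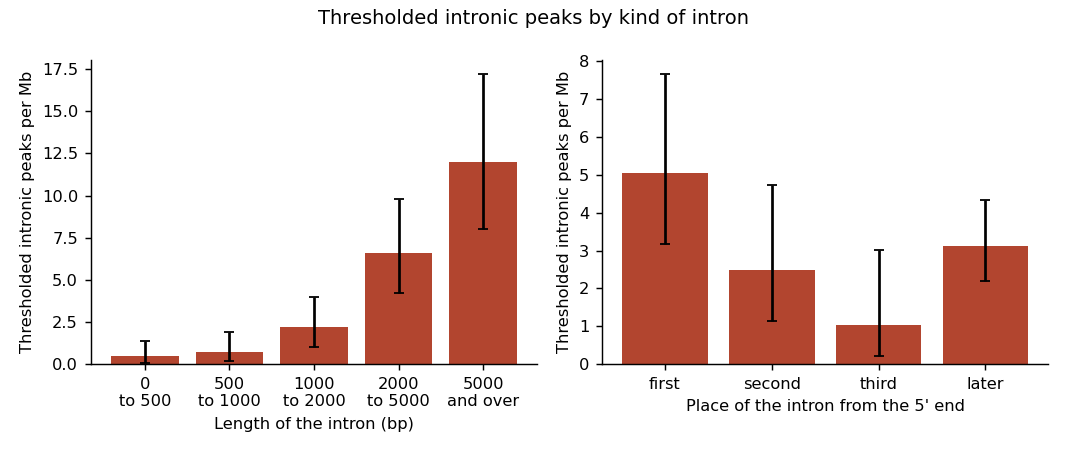
Thresholded intronic peaks per Mb of eligible intron by intron length (left) and by place of the intron from the 5′ end (right), with 95% exact Poisson intervals as lines. Density was 12.0 per Mb in introns of 5000 bp and over and 0.467 per Mb in those under 500 bp.

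Strong intronic summits were rich in G and C. In the 101 bp centred on the summit the thresholded peaks had 50.8% ± 7.0 G and C (mean and SD over 70 peaks), against 37.3% ± 8.34 for the other 2289 intronic peaks and 32.9% ± 8.53 for 221735 windows tiling the eligible intron. Their own flanks, an equal length starting 200 bp away, held 40.4% ± 8.26. In 56 of the 70 the content was over 45%, against 17.9% of other intronic peaks and 8.56% of tiled windows. The mdt-26 summit reached 66.3% and lin-42 60.4%, while vab-1 (34.9) had 36.6%. Around the other intronic peaks the profile had a small dip at the summit itself, 35.6% ± 0.295 (SE), against 37.4% ± 0.283 at 200 bp on the 3′ side of the plus strand. G and C content can affect amplification and sequencing, and its part in peak strength was not tested. Repeats took up little of the strong sites: soft-masked bases made up 13.4% of thresholded peaks on average and 36.8% of other intronic peaks, and more than 50% of a peak was masked in none of the 70 and in 623 of the other 2289. Words of 32 bp that occur more than once in the genome made up over 50% of the words of 1 thresholded peak, the one in klp-6 (63.4%). How reads were placed there was not measured.

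**Figure D5:**
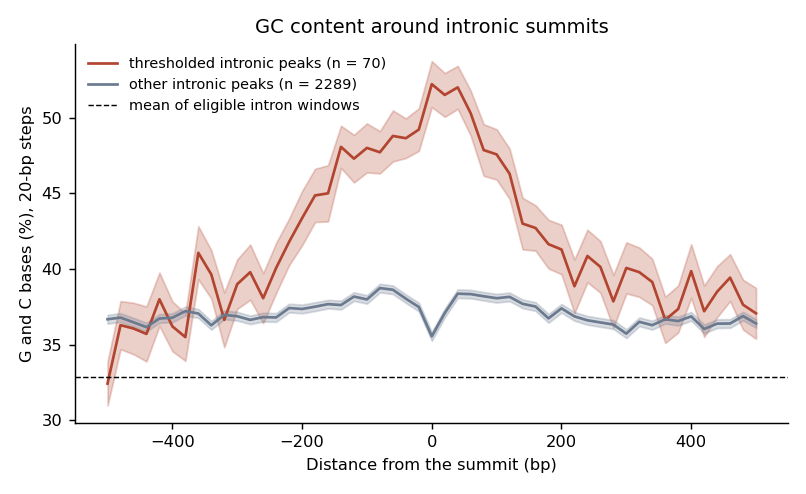
Mean G and C content (%) in steps of 20 bp against distance from the summit (bp) for the 70 thresholded intronic peaks and the other 2289, with bands of 1 SE over peaks and a dashed line at the mean of eligible intron windows. Thresholded peaks reached 52.2% at the summit, against 35.6% for the other intronic peaks there.

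Motifs were counted on both strands within 50 bp of the summit. GAGAG, the word bound by GAGA-type factors in Drosophila, was present at 41 of the 70 thresholded summits (58.6%, exact interval 46.2 to 70.2) and in the flanks of 14 (20%). It was present at 16.9% of the other intronic summits and in 9.44% of tiled intron windows of the same length. At thresholded peaks of the other autosomal classes it was present in 44.6% of summits. Since the strong sites differ in base content, windows in the middle range of their G and C content (46.5 to 54.5%) were also compared: GAGAG was present at 19 of 36 thresholded summits (52.8%), at 33.0% of 285 other intronic summits and in 20.1% of 13513 tiled windows. The top set of each replicate alone gave GAGAG at 37 of 70 intronic summits in replicate 1 and at 46 of 88 in replicate 2. The longer word GAGACGCAG, chosen after word counts on these data, was present at 14 of 70 thresholded summits (20%). It was in none of their 70 flanks, which allows a share of up to 4.29% by 3 counts. Its share was 1.66% at the other intronic summits and 0.453% in tiled windows. At thresholded peaks of the other autosomal classes it was at 43 of 460 summits (9.35%). Among the printed stretches it can be read in those of lin-42, larp-1 and spop-1 and, on the other strand, in that of Y111B2A.12.

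Words rich in A and T were scarce at strong summits. AAGTT, the core of the site described for Myt1-family zinc fingers in vertebrates, was present at 3 of 70 thresholded summits (4.29%) and in the flanks of 17 (24.3%). It was at 33.0% of the other intronic summits and in 38.4% of tiled windows. At thresholded peaks of the other autosomal classes it was also scarce, at 47 of 460 summits (10.2%). The top set of each replicate alone gave AAGTT at 4 of 70 intronic summits in replicate 1 (5.71%) and at 11 of 88 in replicate 2 (12.5%). Within the middle range of G and C content it was at 0 of 36 thresholded summits, which allows a share of up to 8.33% by 3 counts, against 18.2% of other intronic summits and 22.4% of tiled windows. A lack of these letters in a window of 101 bp says nothing of whether ZTF-11 binds there. The E-box CANNTG, read by basic helix-loop-helix factors, was at 28 thresholded summits (40.0%) and in the flanks of 23 (32.9%). It was at 28.2% of other intronic summits and in 25.2% of tiled windows. At thresholded peaks of the other autosomal classes it was at 40.9% of summits, close to the intronic share. In the middle range of G and C content the shares were 38.9% of thresholded summits, 38.9% of other intronic summits and 31.8% of tiled windows. Over all words of 6 letters, taking a word and its reverse complement as 1, GAGAGA led, with 31 thresholded summits and 6 flanks, followed by AGAGAG (28 and 5), AGAGAC (21 and 6) and TAGAGA (20 and 5). Words of a different kind came next, CGTCTC (19 and 4), AGACGC (16 and 2) and GACGCA (17 and 3), which overlap in GAGACGCAG. AAAAAT was the scarcest against tiled windows, at 1 thresholded summit and in 62.4% of windows.

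Genes other than protein-coding, tRNA, snoRNA and snRNA genes lay near many of the strong peaks. They are called nested genes or non-coding genes here and include piRNA genes and pseudogenes. Whether each lay wholly within the host intron was not checked. Of the 70 thresholded peaks 21 (30%, exact interval 19.6 to 42.1) had such a gene within 250 bp of the summit, against 9.48% of the other intronic peaks and 8.2% of eligible bases. The summit lay inside the gene for 10 thresholded peaks (14.3%), against 2.84% of the other intronic peaks and 1.88% of eligible bases. Genes of the annotation class ncRNA, among them srpr-2.2 and rpr-1, lay within 250 bp of 20 thresholded peaks (28.6%). The same held for 6.90% of the other intronic peaks and 3.09% of eligible bases. Counting exons of genes of every class as exons, non-coding ones included, would leave 60 of the 70 thresholded peaks. None of the 70 was within 500 bp of a pseudogene, which allows a share of up to 4.29% by 3 counts. The share was 0.524% of the other intronic peaks and 1.2% of eligible bases, so this absence says little. Within 500 bp of a piRNA gene were 2 of the 70, against 3.06% of the other intronic peaks and 5.14% of eligible bases. GAGAG was present at 9 of the 21 summits near a nested gene and at 32 of the 49 away from one. Among the 20 strongest intronic peaks a nested gene lay within 250 bp of the summit at lin-42, tba-7, T28F4.1, klp-6, ints-8, let-526, Y67D8A.2 and mfb-1.

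MicroRNA genes were near few peaks in number but near a larger share of strong ones. Within 500 bp of a microRNA gene were 6 thresholded intronic peaks (8.57%, 3.21 to 17.7), 13 others (0.568%) and 0.185% of eligible bases. These were picked out after their values were seen. In Y67D8A.2 a summit lay inside mir-58a, an abundant microRNA, with a signal of 43.8, and a second of 55.2 lay 211 bp from it. Both met the same peak in each replicate, ranked 346 and 91. A peak in trpa-1, a TRP channel gene, lay 232 bp from mir-124, a microRNA of sensory neurons, with a signal of 48.9 and ranks of 196 and 1067. The peaks 277 bp from mir-90 in K01F9.2 (51.2), 401 bp from mir-229 in gcn-1 (48.2) and 378 bp from mir-2 in ppfr-1 (44.6) completed the 6. Below the threshold, 3 peaks in Y62F5A.9, with signals of 28.7, 23.8 and 20.9, lay within 250 bp of members of the mir-35 family cluster, which acts in embryos. Of 187 autosomal microRNA genes, 55 lay wholly in eligible intron. Of those 55, 13 had an intronic summit within 250 bp, and 2 had a thresholded one. The 13 include genes of the mir-35 family cluster in the single Y62F5A.9 intron, so they are not all separate sites. No share for other intron stretches of the same size was computed, so these counts have no background to be set against.

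Host genes were then read by the gene lists, which hold 1210 entries in 19 lists. Counts of hosts and ratios rest mostly on peaks outside the thresholded list, which may include background. Axon guidance and adhesion genes stood highest in share: 31 of 57 with eligible intron were hosts (54.4%), against 10.7% of all such genes, and 5 hosted a thresholded peak. Their introns are long, with 52.9% of their eligible bases in introns of 2000 bp and over, against 27.1% over all genes. At the density of introns of the same length class they would hold 53.6 peaks, and the observed count was 2.22 times that (exact Poisson interval of the ratio 1.84 to 2.66). The thresholded peaks lay in cam-1 (53.3), vab-1 (51.9 and 34.9), jac-1, the p120-catenin gene of cadherin junctions (48.9), smp-1, a semaphorin gene (41.5), and vab-2 (34.2). An ephrin and its receptor gene, vab-2 and vab-1, were thus both hosts. The thresholded count, 6 against 2.35 at the density of introns of the same length, is small. Beneath the threshold stood 9 peaks in mig-10, an actin regulator of outgrowth (strongest 30.8), 9 in unc-5, a netrin receptor gene (19.8), and 7 in ptp-3, a LAR-type phosphatase gene (20.9), genes named after their values were seen.

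Among signalling and cell cycle genes, 8 of 25 Wnt pathway genes were hosts, with 21 peaks (ratio to introns of the same length 2.33, 1.44 to 3.56), and thresholded peaks in cam-1 and in lit-1, the Nemo-like kinase gene (37.8). Of 44 cell cycle genes 6 were hosts (13.6%, against 10.7% of all genes), with 16 peaks (2.15, 1.23 to 3.5), of which 8 lay in cdc-25.2 alone. There were thresholded peaks in cdc-25.2, a phosphatase that activates cyclin-dependent kinases (41.2 and 35.5), and cyd-1, cyclin D (37.3). The weaker cdc-25.2 peak ranked 6326 in replicate 1 and 414 in replicate 2. Of 25 Notch pathway genes 4 were hosts (16%), with 9 peaks (ratio 1.53, 0.699 to 2.90). That interval is too wide to place the list above or below other genes. None hosted a thresholded peak, against 0.223 at the density of introns of the same length, so the absence says little. The strongest Notch list peaks lay in sel-8 (33.5) and lag-1 (30.4), both nuclear effectors of the pathway. In the cytoskeleton list 11 of 38 were hosts (23 peaks, ratio 1.67, 1.06 to 2.50), with thresholded peaks in klp-6 and unc-33.

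Neuron terminal selectors, which set the final identity of neurons, had 10 hosts of 23 genes and 15 peaks (ratio 2.24, 1.25 to 3.69). None was thresholded, against 0.17 at the density of introns of the same length, so the absence says little. The strongest lay in vab-7 (23.9), ast-1 (23.1) and lim-7 (20.5). Neurogenesis transcription factors had 7 hosts of 17 and 8 peaks (2.01, 0.868 to 3.96), none thresholded, against 0.123 at that density. One of these hosts was ztf-11 itself, whose intronic peak had a signal of 21.6, ranked 584 in replicate 1 and had no overlapping peak in replicate 2. Its reads may come from the transgene copy as well as from the genomic locus, and these cannot be told apart here. The unc-119 intron peak was weak, 18.2, with ranks of 8933 and 9016. Pan-neuronal and synaptic genes had 10 hosts of 24 and 13 peaks, close to the 13.9 at the density of introns of the same length (ratio 0.934, 0.497 to 1.6), with 1 thresholded peak in unc-33. Ion channel genes (31 peaks in 19 hosts of 64, ratio 0.964), neuropeptide genes (8 in 7 of 45, 1.09) and ceh homeobox genes (6 in 6 of 45, 0.828) held no thresholded peak. At the density of introns of the same length they would hold 1.04, 0.283 and 0.168.

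Of the remaining lists none hosted a thresholded intronic peak. At the density of introns of the same length each would hold at most 0.573, so this absence says little. Epidermis genes had 28 peaks in 11 of 58 (ratio 1.74, 1.16 to 2.51), of which 11 lay in egl-18. Body wall muscle genes had 22 in 14 of 35 (1.28, 0.803 to 1.94), chromatin regulators, a list that does not hold zfp-1 or let-526, 14 in 9 of 49 (1.2, 0.658 to 2.02) and nuclear hormone receptors 30 in 24 of 240 (1.09, 0.735 to 1.56). Pharynx and intestine genes had 6 in 3 of 23 (1.07), DREAM subunit genes 2 in 1 of 7 (1.83), Hox genes and cofactors 1 in 1 of 8 (0.433), and ribosomal protein genes, whose introns are short, none in 28. Ratios with wide intervals, among them those of the last 4 lists, cannot place a list above or below other genes. The lists were chosen with results of these data known, and they overlap in genes such as cam-1, so the ratios are a description.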

How the data were processed

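ChIP-seq peak lists of eGFP-tagged ZTF-11 from 2 biological replicates were used as the authors deposited them, on ce11 only (the WBcel235 sequence, Ensembl release 115 annotation). Lists on ce10 were not used. Per the deposited listings of files, relaxed lists came from each replicate, or both pooled, against a control. The thresholded list was made from these by the irreproducible discovery rate. Each replicate's relaxed list held 30000 peaks, the pooled list 12024 and the thresholded list 721 (6%). By its label the pooled list holds peaks and background as input for the thresholding. Which aligner, caller and threshold were used is not given in the sources used here. Deposited signal values are the caller's enrichment over a control, of unstated scale. The deposited −log10 q-value, as read from the file format, was not used in any test. Depth is unknown and the control library was not analysed here.

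The members, gene lists, motifs and comparisons were chosen with earlier results of these data known. A summit in an exon of any protein-coding gene was left out; counting only the exons of the gene that contains it would add 33 peaks. Every gene containing a summit was a host. Of 1210 list entries, 74 matched no annotated symbol. Replicate overlap meant at least 1 bp. Expected list counts applied the peak density of each intron length class. Named genes were hosts of the 20 strongest peaks, the 5 genes with most peaks, up to 3 genes of each list with the strongest thresholded peaks, ztf-11 and unc-119, and the peaks beside the threshold; other names were chosen after values were seen. Since the libraries form 1 group and peaks are not replicates, no test was made. Intervals are 95% exact Clopper-Pearson intervals for shares and exact Poisson intervals for densities and ratios. Analyses used Python 3.11.15, numpy 2.4.6, pandas 2.3.3, scipy 1.17.1 and matplotlib 3.10.9, and the counting steps were tested on simulated data. Alternatives were other promoter windows and small RNA distances, exons of genes of every class, 1 host per summit, a stricter signal limit, other overlap rules, each replicate alone, other motif windows and distances to nested genes, and, added after seeing the data, windows of matched G and C content, the word GAGACGCAG and densities by intron length.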

Additional observations from a re-analysis of the deposited data

How the results depend on the processing

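No paired analysis was possible because the design has 1 group. Setting a replicate aside meant taking the strongest peaks of the other one alone. Counts over peaks, densities, hosts and nested genes kept within 1.5 times of their values under other promoter windows, small RNA distances and single replicates. With exons of genes of every class left out, 2290 intronic peaks and 60 thresholded ones were kept. The thresholded share of intronic peaks, 2.97%, ran between 2.93% and 3.88% when 1 replicate was set aside. With signal at or above the median of the thresholded list, 29 of the 70 peaks were left, fewer by construction. The share of intronic peaks met in both replicates, 57.1%, became 45.9% with 50% reciprocal overlap, 32.6% with summits within 100 bp, 23.9% against as many of each replicate's strongest peaks as the pooled list holds and 1.82% against as many as the thresholded list holds. The share of thresholded peaks among the strongest of both replicates, 48.6%, was 100% with as many peaks as the pooled list holds and 100% with all 30000. Within 0 bp, 10 thresholded peaks lay at a nested non-coding gene rather than 21 within 250 bp. GAGAG was at 32.9% of thresholded summits within 25 bp and at 82.9% within 100 bp, wider windows holding more words. AAGTT was at 14.3% within 100 bp and at 12.5% among the strongest peaks of replicate 2 alone, and CANNTG was at 21.4% within 25 bp and at 67.1% within 100 bp. Without replicate 2, 15 chromatin regulator genes were hosts rather than 9, and 4 neuropeptide genes rather than 7 of 45. Small lists moved by 1 or 2 genes: without replicate 1, 2 Notch pathway genes of 25 were hosts rather than 4, and without replicate 2, 3 DREAM and 2 Hox genes. Base content, repeats, densities by intron, distance and chromosome, microRNA distances and list ratios were not recomputed under these alternatives. With no read counts, the precision of single peaks is unknown.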
